A study of Mus musculus with 10 samples.

Results

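The antioxidant enzyme genes examined here were a fixed set of 10 named genes, namely 3 superoxide dismutases (Sod1, Sod2 and Sod3), catalase (Cat), 3 glutathione peroxidases (Gpx1, Gpx3 and Gpx4), 2 peroxiredoxins (Prdx1 and Prdx6) and thioredoxin (Txn1). All 10 were found by symbol among the 24059 gene symbols of the count table, and 8 of them were among the 2438 genes left by the filter on low counts, Sod3 and Gpx4 having too few reads. The data were RNA-seq read counts from whole lungs of 10 female C57Bl/6 mice that had no genetic modification named in the labels. The FO group (5 mice) had eaten a high-fat diet made with menhaden fish oil, which is rich in n-3 polyunsaturated fatty acids (PUFAs), and the CO group (5 mice) a high-fat diet in which saturated fat from coconut oil took the place of the n-3 PUFAs, in both cases for 8 weeks and up to an age of 14 weeks. All mice had undergone airway reactivity testing and their lungs had been flushed with PBS before RNA was taken, and both arms were high-fat arms, so the comparison has no standard-chow reference.

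Superoxide dismutases convert superoxide to hydrogen peroxide, SOD1 in the cytosol, SOD2 in mitochondria and SOD3 outside the cell. Catalase then splits hydrogen peroxide. The glutathione peroxidases and the peroxiredoxins reduce hydrogen peroxide or lipid peroxides, with glutathione or thioredoxin as the source of electrons. The lung depends on all these enzymes because its epithelium faces inhaled oxygen. PUFAs are the lipids most prone to peroxidation, which gives the question that a fish oil against a saturated fat diet puts to these genes: whether their transcripts were at different levels in the lungs of the FO and CO groups.

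Many genes of this system carry an antioxidant response element in their regulatory regions, which the transcription factor NRF2 binds, so the proximal promoters of the set were read for its core. The core TGACNNNGC was searched on both strands from 250 bases before to 50 bases after each annotated start in the RefSeq promoters of GRCm38.p6. Of the 10 genes, 8 had a promoter in that table (not Sod3 or Prdx6), with 11 start windows among them, and the core was present in 1 window each of Prdx1 and Sod1. It was present in 12.4% of all 32851 promoter windows and in at least 1 window of 14.0% of all 27025 genes, and 2 genes of 8 are too few to be read against that share. The windows with a match are shown because they are the places in the set where the core was found. They are on the + strand of GRCm38.p6, at chr4:116685431-116685509 for Prdx1 and chr16:90220671-90220749 for Sod1, and the capitals mark the 9 letters that read as the core on the opposite strand, at -133 to -125 from the Prdx1 start and at -56 to -48 from the Sod1 start.
Prdx1: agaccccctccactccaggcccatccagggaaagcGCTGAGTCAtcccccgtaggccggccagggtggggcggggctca
Sod1: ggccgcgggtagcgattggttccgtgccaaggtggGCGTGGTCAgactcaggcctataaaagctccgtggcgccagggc
A match of letters is a description of the sequence and says nothing of binding in these lungs.

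Depth limited what could be seen. Libraries held 229766 to 1124963 counts, of which the ribosomal RNA precursor Rn45s took 21.8% to 87.0%, and 45177 to 473254 counts were left for all other genes. The 10 antioxidant genes together received 239 to 2102 counts per mouse, and 3 counts, taken as the smallest signal, stood for 2.29 to 19.9 CPM (counts relative to the size of the library, with TMM scaling between mice). Intervals from counts and this floor cover counting error only. FO mouse 2 and CO mouse 5 stood apart, with the nuclear RNA Malat1 at 8.53% and 6.15% of the counts outside Rn45s against 0.14% to 1.05% in the other 8 mice, and values without these 2 mice are given below. The study's methods name 2 kinds of library kit and 3 sequencers without a mouse for each, so kit and sequencer cannot be told apart from diet. Markers of the lung were at high levels, with 7 of 8 alveolar type 2 and all 5 club cell markers past the filter, and the summed alveolar type 2 level was 1055 to 3669 CPM.

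Levels were compared between genes per kilobase of exon (GENCODE M21, GRCm38), averaged over the 10 mice. Sod1 was the most abundant transcript of the set at 793 CPM per kilobase, 4.73 times the 168 CPM per kilobase of Prdx6, and it was above Prdx6 in 10 of 10 mice with ranges that did not overlap. Prdx6, Gpx1, Txn1, Prdx1 and Gpx3 followed at 168, 134, 115, 73.8 and 55.02 CPM per kilobase, and each neighbouring pair in that order had overlapping ranges. A clear step of 2.96 times then separated Gpx3 from catalase at 18.6 CPM per kilobase, again in 10 of 10 mice. Gpx4, Sod2 and Sod3 were lowest at 12.7, 8.26 and 3.14 CPM per kilobase, also with overlapping ranges between neighbours. The place of Sod2 depends on the exon length used, 5861 bases in this annotation against 641 for Sod1, and the length of its transcripts in lung was not measured. Shared sequence also limits the order, since levels per kilobase were not corrected for it. In the annotation, other genes hold 51.4% of the 50-base stretches of Gpx4 and 23.1% of those of Sod1. For Cat, Gpx1 and Gpx3 that share is 0%.

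The count of the cytosolic dismutase Sod1 (chromosome 16, 90220754 to 90226329, + strand) did not pass the test between diets. Its level in FO mice 1 to 5 was 602, 305, 471, 551 and 622 CPM, and in CO mice 1 to 5 it was 498, 368, 390, 742 and 537 CPM. The lowest value belonged to FO mouse 2 and the highest to CO mouse 4, and the ranges of the diets overlapped. The mean was 510 ± 129 CPM for FO and 507 ± 150 CPM for CO (SD, 5 mice per diet). EdgeR's quasi-likelihood test put the log2 fold change at -0.00 with a 95% interval from -0.52 to 0.52 (SE 0.25, unadjusted p = 0.998, adjusted p = 0.999). That interval leaves room for FO levels between 0.70 and 1.43 times those of the CO group. In the annotation, 23.1% of the 50-base stretches of Sod1 transcripts also occur in 1 other gene, the pseudogene Gm8566, so part of its reads could have been lost or shared.

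**Figure D1:**
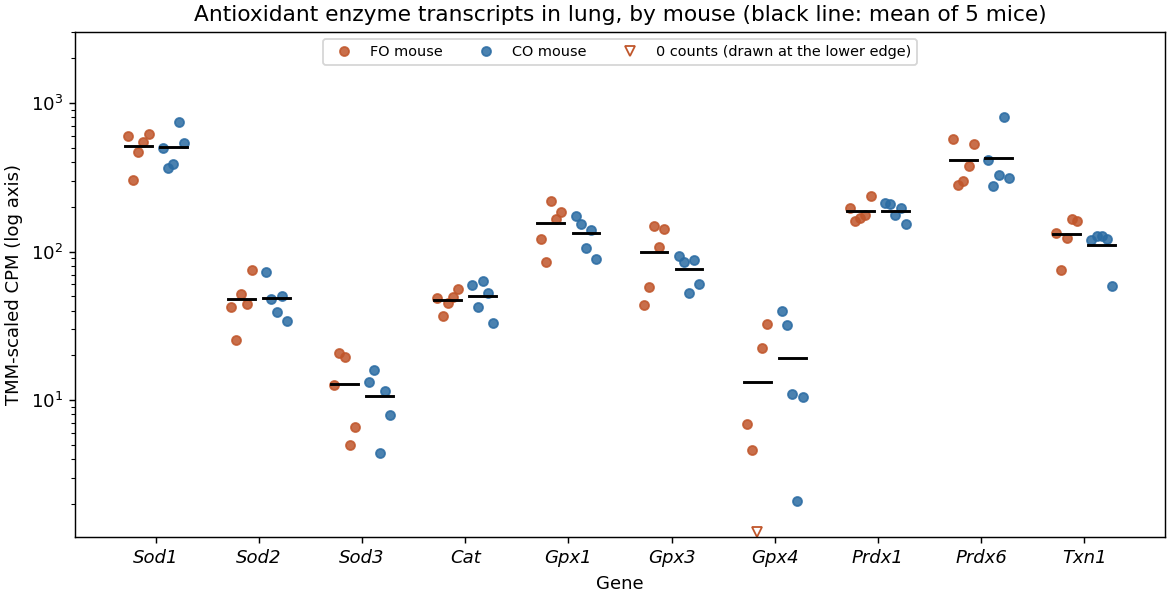
TMM-scaled CPM (log axis) of the 10 antioxidant enzyme genes in each mouse, FO in orange and CO in blue, with black lines at the mean of 5 mice. FO and CO points overlap for every gene, from Sod1 with means of 510 and 507 CPM to Sod3 with means of 12.8 and 10.6 CPM.

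Sod2 and Sod3 were measured with far fewer reads. Sod2 (chromosome 17, 13006846 to 13040063, + strand) had 8 to 48 reads per mouse and means of 47.8 ± 18.2 CPM for FO and 49.0 ± 14.97 CPM for CO, with a log2 fold change of -0.04 (95% interval -0.71 to 0.63, edgeR unadjusted p = 0.897). The extracellular dismutase Sod3 (chromosome 5, 52363791 to 52371418, + strand) had at most 27 reads in a mouse, and 5 of the 10 mice had 3 reads or fewer. When edgeR was fitted to all 14161 genes that had a read, its log2 fold change was 0.42, with an interval from -0.62 to 1.47 (unadjusted p = 0.430). It fell to -0.05 without FO mouse 2 and CO mouse 5, so no direction can be read for Sod3 at this depth.

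Catalase (chromosome 2, 103453849 to 103485160, − strand), the peroxisomal enzyme that splits hydrogen peroxide without a cofactor thiol, was even across mice. FO mice ranged from 36.7 to 55.7 CPM and CO mice from 32.8 to 63.5 CPM. The means of 47.1 ± 6.94 and 50.2 ± 12.6 CPM gave a log2 fold change of -0.09 (95% interval -0.66 to 0.48, edgeR unadjusted p = 0.745).

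Among the glutathione peroxidases, Gpx3 and Gpx1 had positive fold changes that did not pass the test. Gpx3 (chromosome 11, 54902453 to 54910377, + strand) encodes the secreted form found in plasma. It was at 43.7, 57.3, 148, 107 and 141 CPM in FO mice 1 to 5 and at 93.0, 85.2, 52.6, 88.2 and 60.4 CPM in CO mice 1 to 5. The FO group was split: FO mice 3, 4 and 5 were above every CO mouse, FO mouse 2 was among the low CO mice and FO mouse 1 was the lowest of all 10. The log2 fold change was 0.34 (95% interval -0.36 to 1.03, that is 0.78 to 2.04-fold, edgeR unadjusted p = 0.326, two-sided exact permutation p = 0.286). Gpx1 (chromosome 9, 108338903 to 108340343, + strand), the cytosolic form, had 122, 84.8, 219, 167 and 183 CPM in the FO mice and 173, 154, 105.2, 141 and 89.2 CPM in the CO mice. Its extremes were both FO mice, and the log2 fold change was 0.22 (95% interval -0.36 to 0.80, edgeR unadjusted p = 0.436).

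Gpx4 (chromosome 10, 80047166 to 80056439, + strand) encodes the enzyme that reduces peroxides of membrane phospholipids, and it was the least well measured of the set. It had 6, 6, 0, 18 and 10 reads in FO mice 1 to 5 and 6, 6, 5, 2 and 8 reads in CO mice 1 to 5. FO mouse 3 had no read, where 3 reads would have been 19.4 CPM, so its level there was not detectable at this depth. The log2 fold change of -0.01 had an interval from -1.25 to 1.23 (edgeR on all genes that had a read, unadjusted p = 0.987), too wide to set a direction. In the annotation 51.4% of the 50-base stretches of Gpx4 transcripts also occur in 2 other genes, 1 of them the pseudogene Gpx4-ps2, and the part of this in the low count was not tested.

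**Figure D2:**
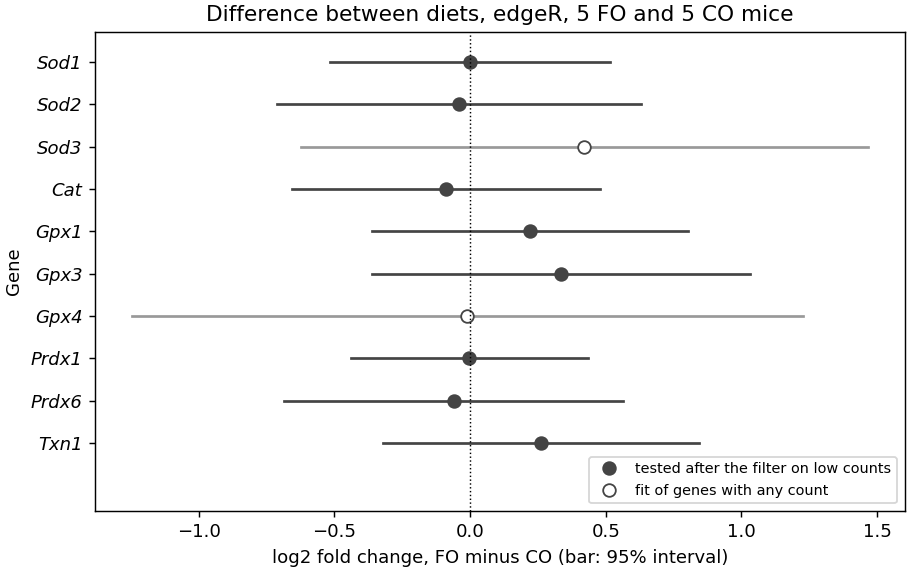
Log2 fold change of each gene, FO minus CO, with its 95% interval from edgeR, over 5 FO and 5 CO mice. Filled points are the 8 genes past the filter on low counts and open points the 2 genes tested without that filter, and all 10 intervals cross 0, the narrowest being that of Prdx1 from -0.44 to 0.44.

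The peroxiredoxins reduce peroxides with thiols, Prdx1 with electrons from thioredoxin and Prdx6 with glutathione. Prdx1 (chromosome 4, 116685544 to 116700822, + strand) was at 196, 160, 168, 175 and 236 CPM in FO mice 1 to 5 and at 213, 208, 175, 195 and 152 CPM in CO mice 1 to 5. Its means of 187 ± 30.4 and 189 ± 24.9 CPM gave the tightest estimate of the set, a log2 fold change of -0.00 with an interval from -0.44 to 0.44, or 0.74 to 1.35-fold (edgeR unadjusted p = 0.991). Prdx1 shares 8.99% of its 50-base stretches with 3 other annotated genes.

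Prdx6 (chromosome 1, 161240112 to 161251219, − strand), which also has a phospholipase activity that acts on lung surfactant, varied more. Its level was 571, 280, 297, 376 and 534 CPM in FO mice 1 to 5 and 412, 277, 329, 803 and 311 CPM in CO mice 1 to 5. CO mouse 4 was the highest of the 10 mice and the other 4 CO mice were at 277 to 412 CPM. The log2 fold change was -0.06 (95% interval -0.69 to 0.57, edgeR unadjusted p = 0.841), and it was 0.33 without CO mouse 4 (edgeR unadjusted p = 0.221), so its sign changed when 1 library was left out. In that library the markers of alveolar type 1 cells summed to 1559 CPM, against 495 to 975 CPM in the other 9 mice (5 of the 6 markers were past the filter and Aqp5 was at 0). Its marker sums for alveolar type 2, alveolar macrophage, smooth muscle and fibroblast cells were the lowest of the 10 mice (1055, 124, 86.1 and 550 CPM). The erythroid sum was also lowest in CO mouse 4, at 2.10 CPM. That sum was 2 reads, under the 3 taken as the smallest signal. Of the 9 erythroid markers, 6 were at 0 in every mouse and 1 was past the filter. Rn45s took 21.8% of the counts of CO mouse 4, the lowest share. The part of any of these in the Prdx6 level was not tested.

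Thioredoxin, Txn1 (chromosome 4, 57943373 to 57956411, − strand), the small redox protein that recycles Prdx1, was at 132, 74.9, 123, 167 and 160 CPM in FO mice 1 to 5 and at 120, 128, 127, 121 and 59.1 CPM in CO mice 1 to 5. In 4 of 5 CO mice it was within 120 to 128 CPM, and the low values of each diet were FO mouse 2 and CO mouse 5, the libraries with high Malat1. The log2 fold change was 0.26 (95% interval -0.32 to 0.84, edgeR unadjusted p = 0.359) and 0.25 without those 2 mice (unadjusted p = 0.252).

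Counted over the set, 0 of the 8 genes past the filter had an unadjusted p under 0.05 in edgeR, against a background of 2.91% of the 2438 genes tested, and 0 did in DESeq2 or in limma-voom. At that background a count of 0 among 8 genes is no more than the rest of the table shows. The 2 genes outside the filter were not called either, against 4.15% of the 14161 genes with any count. Of the 8 genes, 3 (Gpx1, Gpx3 and Txn1) had a positive fold change, against 50.6% of all genes tested, and the median of the 8 was -0.00. This summary moved with single libraries and with the method. Over the 19 alternative settings the median of the set was -0.09 to 0.23 relative to that of all genes. Positive genes were 8 of 8 without FO mouse 2, 7 without CO mouse 4 and 6 with limma-voom. With library size alone they were 0, before its shift of the median gene was taken off. FO and CO values overlapped for each of the 10 genes, and among all genes tested 0.41% had groups that did not overlap. Over the whole table edgeR gave 71 genes with an unadjusted p under 0.05 (41 higher and 30 lower in the FO group, but 1 higher of 36 with library size alone), DESeq2 gave 62, and 0 of the 71 passed adjustment. With DESeq2, 1 gene of the whole table passed adjustment. In edgeR, 1 gene passed with any count, 1 without FO mouse 2, and 1 without both FO mouse 2 and CO mouse 5. No gene of the set was among them. A 2-fold difference lay outside the 95% interval of 7 of the 8 genes past the filter, Gpx3 being the exception.

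The 10 genes took 0.62%, 0.29%, 0.51%, 0.57% and 0.68% of the counts outside Rn45s in FO mice 1 to 5 and 0.56%, 0.46%, 0.43%, 0.75% and 0.38% in CO mice 1 to 5. The lowest share was that of FO mouse 2 (exact Clopper-Pearson 95% interval 0.275% to 0.306%) and the highest that of CO mouse 4 (0.717% to 0.781%), and the ranges of the diets overlapped from 0.38% to 0.68%. In bulk tissue, fewer cells of a type and less RNA per cell cannot be told apart.

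Within each enzyme family the mix of transcripts does not depend on how mice were scaled, and its ranges overlapped between the diets in all 3 families. Sod1 made up a median of 88.4% of the dismutase reads in FO mice (86.9% to 91.8%) and 89.9% in CO mice (85.2% to 92.7%). Gpx1 made up 57.8% of the reads of the 3 glutathione peroxidases in FO mice (51.4% to 70.7%) and 56.9% in CO mice (55.7% to 62.3%), and Gpx3 39.1% and 31.4%. The Gpx3 share ranged from 25.3% to 40.4% in FO mice and from 30.4% to 38.2% in CO mice, so these medians came from overlapping ranges. Prdx6 took 68.2% of the reads of both peroxiredoxins in FO mice (63.7% to 74.5%) and 66.0% in CO mice (57.1% to 80.4%). Its ratio to Prdx1 was 1.75 to 2.92 reads in FO mice, 1.33 to 2.04 in 4 CO mice and 4.11 in CO mouse 4, where the Prdx6 share was 80.4% (exact Clopper-Pearson 95% interval 77.8% to 82.9%).

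**Figure D3:**
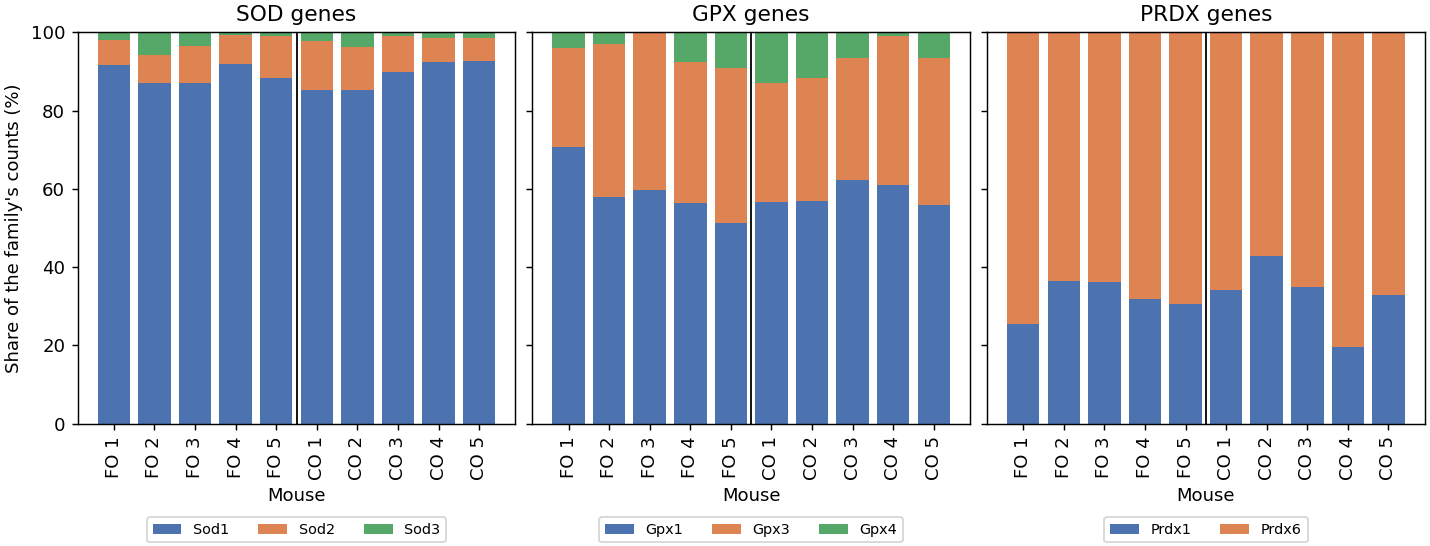
Share (%) of the summed counts of each family taken by its members in each mouse, for the 3 dismutase, 3 glutathione peroxidase and 2 peroxiredoxin genes, with FO mice left and CO mice right of the vertical line. Sod1 is at 85.2% to 92.7% in every mouse, and CO mouse 4 has the highest Prdx6 share, 80.4%.

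The spread between mice of a diet was set against the spread that counting alone would give. For the abundant genes the mice differed by far more than counting error: Sod1 had a coefficient of variation (CV) of 25.2% for FO and 29.5% for CO where counting gives 7.17% and 7.69%, and Prdx6 had 32.6% and 50.8% where counting gives 7.69% and 8.25%. Prdx1 was close to the counting limit, with 16.3% and 13.2% against 11.8% and 13.6%, and catalase was under it, with 14.7% and 25.1% against 23.6% and 26.1%. Prdx1 also had the smallest spread of the 8 genes on the log2 scale, a within-diet SD of 0.21, against a median of 0.47 over all genes tested and 0.59 for Gpx3, the largest of the 8. Counting error was thus the smaller part of the spread for Sod1 and Prdx6 and at least as large as the spread for catalase. The rest of the spread is not only that of the animals, since CPM also carry the scaling of each library. TMM factors ran from 0.45 in FO mouse 3 to 3.21 in CO mouse 4. The part of scaling and library quality in the spread was not tested.

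**Figure D4:**
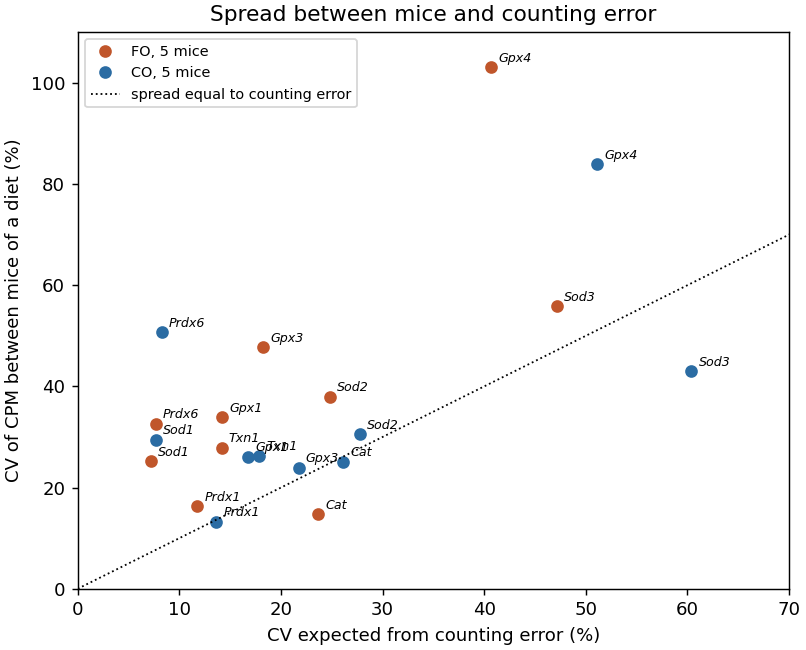
Coefficient of variation of CPM between the 5 mice of a diet (vertical, %) against that expected from counting error (horizontal, %), for each gene in the FO (orange) and CO (blue) groups, with a dotted line where both are equal. Sod1 and Prdx6 lie far above the line (Prdx6 in CO at 50.8% against 8.25%), Prdx1 lies near it, and catalase lies near it in CO and below it in FO (14.7% against 23.6%).

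The rest of the antioxidant system was read from 7 lists of 133 other symbols, of which 125 were in the table and 37 passed the filter. Of the 37, 28 had a positive fold change and 9 a negative one, and 1 was called, higher in the FO group, against 50.6% positive and 2.91% called over all genes tested. A count of 1 of 37 is near that background. The median log2 fold change of the 37 was 0.17 against 0.00 for all genes tested. Over the 19 alternative settings the median of the other antioxidant genes stayed 0.08 to 0.22 above that of all genes. In the fit of all genes that had a read, 63 of 108 were positive, against 7647 of all 14161 genes. With library size alone, which moved the median gene by -0.55, 4 of 37 were positive. No test was made of a list, and the genes of a list are not independent. All settings refit the same mice, so they do not support the offset independently. The lists were also chosen with earlier results of these data known. By function, the positive fold changes were 4 of 6 for other peroxidases and thiol enzymes, 3 of 4 for glutathione synthesis and transfer, 4 of 6 for the NRF2 pathway, 6 of 8 for NADPH supply, 2 of 2 for selenoprotein synthesis, 4 of 5 for sources of superoxide and peroxide, and 5 of 6 for metal and haem handling.

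The gene called was Mt2, a metallothionein that binds zinc and copper and scavenges oxidants. It was at 43.7, 52.7, 45.2, 59.3 and 65.5 CPM in FO mice 1 to 5 and at 13.3, 32.0, 43.8, 13.6 and 7.87 CPM in CO mice 1 to 5. All 5 FO mice were above the CO median, and CO mouse 3 reached just past the lowest FO mouse, so the groups overlapped by 1 mouse. The log2 fold change was 1.36 (SE 0.39, 95% interval 0.54 to 2.18, edgeR unadjusted p = 0.0026, adjusted p = 0.998), and without FO mouse 2 and CO mouse 5 it was 1.09 (unadjusted p = 0.011). With library size alone in place of TMM it was no longer called (edgeR unadjusted p = 0.127). That setting moved the median gene by -0.55, and its p-value does not allow for the shift. It rested on 182 reads from FO mice and 47 from CO mice, and its paralogue Mt1 had a log2 fold change of 0.44 (edgeR unadjusted p = 0.266). Some marker lists of other cells also held a called gene, where 2.91% of all genes tested were called. In the alveolar type 1 list 1 of 5 tested markers was called lower. The lists given next held 1 marker each that was called higher, and the remaining lists held none. The 9 neutrophil markers summed to 56.6 to 318 CPM in FO mice and 33.2 to 53.3 CPM in CO mice, with 1 of them past the filter and called higher. The CO sums rested on 5 to 47 reads per mouse and were not tested. Among single genes tested, 0.41% had groups that did not overlap. The 8 alveolar macrophage markers summed to 241 to 445 and 124 to 319 CPM, with 3 past the filter and 1 called higher, and no marker of either list was at 0 in every mouse. The 7 smooth muscle markers summed to 92.1 to 314 and 86.1 to 164 CPM, with 3 past the filter and 1 called higher. FO mouse 1 had the highest neutrophil sum, and Mt2 was at 43.7 CPM (38 reads) in that mouse and at 45.2 to 65.5 CPM in the other FO mice. The part of such cells in the Mt2 difference was not tested.

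The abundant genes of the other lists did not pass the test. In the NRF2 list Sqstm1, whose protein p62 carries KEAP1 to autophagy, had means of 80.2 ± 13.9 CPM for FO and 57.9 ± 9.01 CPM for CO, with all 5 FO mice above the CO median (log2 fold change 0.39, edgeR unadjusted p = 0.112, two-sided exact permutation p = 0.016 without adjustment over genes). The detoxifying dehydrogenase Aldh1a1 and the factor Nfe2l1 had log2 fold changes of 0.07 and -0.26. Among suppliers of NADPH the pentose phosphate enzymes Taldo1 and Tkt were at 0.49 and 0.39 and the cytosolic isocitrate dehydrogenase Idh1 at -0.27 (edgeR unadjusted p = 0.146, 0.212 and 0.357). The thioredoxin inhibitor Txnip was at 227 CPM for FO and 265 CPM for CO, a log2 fold change of -0.24, while Msrb3 and Glrx5 were at 0.10 and 0.36. The glutathione transferases Gstm2, Gstm1 and Gsta3 were at -0.07, 0.25 and 0.31, and the selenoproteins Vimp and Selt at 0.19 and 0.25. Among sources of superoxide or peroxide, the GTPase Rac1, the oxidase Xdh and the NADPH oxidase subunit Cybb were at 0.20, 0.23 and 0.17. The ferritin chains Fth1 and Ftl1 were at 0.11 and 0.19 and transferrin (Trf) at -0.02, and Fth1, at 1221 ± 314 CPM for FO and 1126 ± 252.4 CPM for CO, had the most reads of the genes in these 7 lists.

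Several known partners of the set could not be read at all. Txn2 (mitochondrial thioredoxin), Sepp1 (selenoprotein P), Maff, Ncf4 and Rac2 were at 0 counts in every mouse, and all 5 lie on chromosome 15. By RefSeq positions, each of the 742 protein-coding genes placed on chromosome 15 was at 0 in all 10 mice, against 21.2% to 46.8% of those on any other autosome or on the X chromosome. Zeros on chromosome 15 therefore carry no information on expression in these lungs, and none of the 10 antioxidant enzyme genes lies there. The alveolar type 1 marker Aqp5 is on that chromosome too. The inducible NRF2 targets Hmox1 and Nqo1, on other chromosomes, had 16 and 6 reads over all 10 mice and did not pass the filter on low counts. In the fit of all genes that had a read, 0 of the 18 NRF2 list genes tested were called, against 4.15% of all genes.

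**Figure D5:**
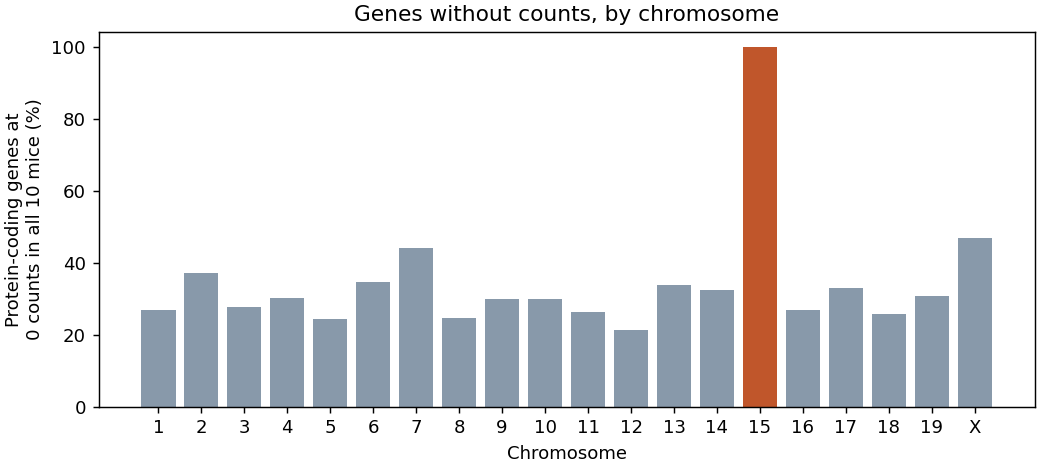
Share (%) of the protein-coding genes of each chromosome, by RefSeq position, that had 0 counts in all 10 mice. Chromosome 15 stands at 100% of its 742 genes and the other chromosomes shown at 21.2% to 46.8%.

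The genes whose levels followed Sod1 and Prdx6, the members with the highest mean CPM, most closely were listed as a description, by Pearson's r of log2 CPM over the 10 mice among 2437 genes, without a p-value since they were picked for the highest r. For Sod1 these were Cryab (r = 0.89, Spearman's rho = 0.81), Mtfr1l (0.86 and 0.85) and Rhoq (0.86 and 0.82), and r was 0.76, 0.71 and 0.77 without FO mouse 2 and CO mouse 4, the mice farthest from the median. For Prdx6 they were Rhoa (r = 0.90, rho = 0.71), Lypla2 (0.88 and 0.73) and Hopx (0.88 and 0.72), and r was 0.74, 0.80 and 0.63 without CO mouse 4 and FO mouse 1. Hopx, a marker of alveolar type 1 cells, was at 491 CPM in CO mouse 4, where its mean was 204 CPM over FO mice and 211 CPM over CO mice. The 10 points share the scaling of their libraries, so depth and composition enter both sides of each r.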

How the data were processed

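Lung RNA of 10 mice, each 1 sample, was analysed, 5 FO and 5 CO by the sample labels. The authors deposited raw counts of single-end reads per gene symbol, aligned to mm10 with STAR 2.4.0f1, sorted with SAMtools 0.1.19 and counted with HTSeq, whose version, strand setting and annotation are not given in the sources used here, so reads of pseudogenes and antisense genes could be split. Each sample column was used, and no pair of mice held identical counts.

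Counts were tested with edgeR 4.0.16 (R 4.3.3), TMM scaling, a filter at a minimum count of 10 and total of 15, and the quasi-likelihood test on diet alone. The unadjusted threshold of 0.05 is that of the study's methods, and Benjamini-Hochberg values over all genes tested stand beside it. Sod3 and Gpx4 came from a fit of all 14161 genes that had a read. P-values measure the spread between these mice. Permutation tests were two-sided and exact over all assignments of the diets, with a smallest p of 0.0079. CPM used TMM-scaled library sizes, and log2 CPM a prior count of 2. Members and gene lists were chosen with earlier results of these data known. Named were all 10 members, list genes with an unadjusted p under 0.05, the 3 tested genes of each list with the highest mean CPM, and the 3 genes most correlated with each of the 2 members with the highest mean CPM. Mt1, Hmox1, Nqo1, Txn2, Sepp1, Maff, Ncf4, Rac2, Aqp5, Rn45s and Malat1 are not covered by this rule and were added once their values had been seen, as were the genes named where a count of calls changed. Exon lengths came from GENCODE M21, and promoters from RefSeq GRCm38.p6. RefSeq symbols matched 23894 of the 24059 symbols.

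Same-numbered mice of both diets are different animals. Their deviations from the diet means had a mean correlation of -0.12 over 5 pairs (-0.41 to 0.03), so the numbers do not pair them. Alternatives were DESeq2 1.42.0, RLE factors, library size alone, 2 other filters, Rn45s left out, limma-voom (limma 3.58.1) with quality weights, the replicate block, each mouse left out, and FO mouse 2 and CO mouse 5 left out.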

Additional observations from a re-analysis of the deposited data

Results flagged for a closer look

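Each of the 10 antioxidant enzyme genes was checked in both diets, 20 groups of 5 mice, for a mouse whose gap to the nearest other mouse exceeded Dixon's 95% critical ratio for 5 values. Of these, 2 groups passed, where chance gives about 1. Prdx6 was at 803 CPM in CO mouse 4, with the other 4 CO mice at 277 to 412 CPM (ratio 0.743). Txn1 was at 59.1 CPM in CO mouse 5, with the other 4 CO mice at 120 to 128 CPM (ratio 0.880). CO mouse 4 had the lowest Rn45s share, 21.8%, and CO mouse 5 was 1 of the 2 mice with high Malat1, and their part in these values was not tested.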

How the results depend on the processing

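No antioxidant enzyme gene was called in any of the 19 settings (0 in each, leaving out each mouse in turn included, where the count was 0 to 0). Gpx1, Gpx3 and Txn1 had a positive fold change in all of them (0.07 to 0.39, 0.16 to 0.55 and 0.08 to 0.44). With library size alone this held only relative to the median gene, and before that 0 of the 8 genes tested were positive. The smallest unadjusted p was 0.099, for Txn1 without FO mouse 2. The number of genes called in the whole table moved from 71 (41 higher) to 36 (1 higher) with library size alone, 587 (365 higher) for genes with any count, 15 (6 higher) with at least 10 counts in every mouse, 117 (60 higher) with limma-voom, and 54 to 154 with each mouse left out, the highest without FO mouse 2. DESeq2 called 62, RLE factors 73, Rn45s left out 106 and the fit without FO mouse 2 and CO mouse 5 72. Among other antioxidant genes the count of 1 became 0 with library size alone and with at least 10 counts in every mouse, 3 without FO mouse 2 and CO mouse 5 (Me1, Mt2 and Sqstm1), and 1 to 3 with each mouse left out, 3 without FO mouse 2 (Me1, Mt2 and Taldo1) and 2 without CO mouse 3 (Mt2 and Pgd). Library size alone moved the median gene by -0.55 (any count: -0.43). Its fold changes are given relative to that shift, while its p-values and counts of calls are those before the shift was taken off. Several fold changes changed sign, and not only those near 0. Sod3, Gstm1, Rac1 and Vimp, at 0.42, 0.25, 0.20 and 0.19 in the main fits, did so in at least 1 setting. With library size alone the fold changes of changed sign were Gpx4 0.15, Prdx1 0.012, Msrb3 -0.032, Gstm2 0.0085, Rac1 -0.040, Fth1 -0.039 and Trf 0.076. Mt2 was 1.55 relative to the shift and no longer called there (unadjusted p = 0.127 in edgeR, for the fold change before the shift was taken off). With any count they were Sod1 0.014, Prdx1 0.040 and Trf 0.017. Without Rn45s they were Sod1 0.0024 and Gpx4 0.023. With limma-voom they were Sod1 0.24, Sod2 0.0065, Prdx6 0.24, Gstm2 0.031 and Vimp -0.095. Without FO mouse 2 and CO mouse 5 they were Sod1 0.17, Sod2 0.042, Sod3 -0.051 and Gpx4 0.32, and Sqstm1 was called at 0.56. Leaving out 1 mouse at a time gave ranges of Sod1 -0.11 to 0.20, Sod2 -0.25 to 0.17, Sod3 0.031 to 0.68, Cat -0.23 to 0.028, Gpx4 -0.43 to 0.37, Prdx1 -0.095 to 0.060, Prdx6 -0.21 to 0.33, Msrb3 -0.014 to 0.21, Gstm2 -0.14 to 0.060, Gstm1 -0.0085 to 0.43, Aldh1a1 -0.052 to 0.21, Vimp -0.25 to 0.52, Cybb -0.030 to 0.35, Ftl1 -0.031 to 0.42, Trf -0.14 to 0.15, Txnip -0.38 to -0.013, Rac1 0.015 to 0.48, Xdh 0.0085 to 0.33, Nfe2l1 -0.36 to -0.076, Selt 0.064 to 0.48, Gsta3 0.11 to 0.61, Fth1 0.017 to 0.26, Glrx5 0.19 to 0.57, Idh1 -0.44 to -0.12, Tkt 0.29 to 0.65, Sqstm1 0.31 to 0.48, Mt2 1.07 to 1.91 and Taldo1 0.33 to 0.65, the last called without FO mouse 2. With the replicate block 55 genes were called (35 higher), 0 of the set and 1 other antioxidant gene, and Sod1 was 0.0087 and Prdx6 0.0036, and no call among the antioxidant genes changed with the block. Beyond fewer samples or genes in a fit, the cause of these moves was not tested. Depth limits Sod3 and Gpx4 to values without direction, and kit, sequencer and diet cannot be told apart.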
